A study of Mus musculus and Acomys cahirinus with 25 samples.

Results

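The epidermal lineage transcription factors examined here are 9 genes, Trp63, Grhl1, Grhl2, Grhl3, Ovol1, Klf4, Klf5, Gata3 and Cebpa, out of 24500 genes counted in each of 25 RNA-seq libraries of wounded and unwounded mouse skin. They were chosen by symbol, as known regulators of keratinocyte identity, and not by a threshold on their values. Each of the 9 had a row in every library, with 0 counts in some dermis libraries. All 9 passed the filter on low counts in every comparison below, some through 1 side alone. Grhl1, Grhl2 and Grhl3 had 0 counts in all 5 wild-type dermis libraries of the wound center, so they passed through the other groups. Ovol1 did likewise in the comparison with K14-Cre-Twist1 dermis. With at least 10 counts in every library, 4 of the 9 were tested in the comparisons with that dermis. The study asked which transcripts mark skin that regrows hair follicles after a full-thickness wound.

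The laboratory mouse libraries were made at post-wound day 14 (PWD14) from animals wounded at 4 weeks of age. That age is from the study's methods, and its results section gives a younger one. They comprised wild-type epidermis of the wound center (2 libraries) and of the wound margin (2), wild-type dermis of the wound center (5) and margin (2), and wound center dermis of K14-Cre-Twist1 mice (2), labelled KO. In that line the Cre recombinase is driven by the K14 promoter, which is active in basal keratinocytes, so the KO dermis libraries come from the layer in which Twist1 was not targeted. The spiny mouse (Acomys cahirinus) libraries came from wild-type animals, 2 months old when used for wounding, and from whole wounds without a division into center and margin. They comprised epidermis at PWD0 (unwounded, 1 library), PWD14 (2), PWD21 (2) and PWD28 (1), and dermis at PWD0 (2), PWD14 (1), PWD21 (2) and PWD28 (1). Spiny mouse reads were aligned to the laboratory mouse genome, so levels are compared within a species only. The study describes its bulk RNA-seq replicates as independent, and the labels do not tie a library to an animal, so p-values measure the spread between these libraries. By its methods, laboratory mouse center and margin are parts of the same wound, and wounds of both species are split into layers. Libraries of different regions or layers may therefore share animals, and the tests treat them as unpaired. The days are those of the labels, and the study's supplement lists somewhat different days for the wounded spiny mouse libraries.

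Stratified epithelium is built by basal keratinocytes that divide, move upward and cornify. The p63 protein, product of Trp63, establishes and maintains the epithelial program and basal adhesion, the grainyhead-like factors Grhl1, Grhl2 and Grhl3 govern cell junctions and the skin barrier, and Ovol1 is a zinc finger repressor that moves progenitors out of the cell cycle. Klf4 drives barrier formation in suprabasal cells, Klf5 is found in proliferating basal cells, Gata3 acts in hair follicle lineage choice and barrier lipid synthesis, and Cebpa is a basic leucine zipper factor of early differentiation.

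On GRCm38, the assembly also called mm10, Trp63 spans chr16:25683763-25892088 (+), Grhl1 chr12:24572232-24617391 (+), Grhl2 chr15:37232821-37363569 (+), Grhl3 chr4:135541887-135573632 (-), Ovol1 chr19:5549137-5560575 (-), Klf4 chr4:55527137-55532475 (-), Klf5 chr14:99298691-99313412 (+), Gata3 chr2:9857078-9887953 (-) and Cebpa chr7:35119293-35121928 (+). Of the 9 genes, 5 had an entry in the RefSeq promoter table of that build (GRCm38.p6), with 6 start sites in all. The 250 bases before 3 of these starts are shown because their genes mark the range of layer patterns described below. Grhl3 had 0 counts in wild-type wound center dermis, Gata3 was called between dermis of the wound center and margin, and Cebpa had the smallest layer difference in the laboratory mouse. Capitals mark CACCC or its reverse complement GGGTG, the core letters recognized by Klf factors.
Grhl3, chr4:135573633-135573882 (-): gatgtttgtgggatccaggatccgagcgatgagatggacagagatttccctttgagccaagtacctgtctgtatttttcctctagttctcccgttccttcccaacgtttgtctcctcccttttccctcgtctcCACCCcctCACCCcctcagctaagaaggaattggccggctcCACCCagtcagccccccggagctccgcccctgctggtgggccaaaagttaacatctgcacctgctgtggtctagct
Gata3, chr2:9878601-9878850 (-): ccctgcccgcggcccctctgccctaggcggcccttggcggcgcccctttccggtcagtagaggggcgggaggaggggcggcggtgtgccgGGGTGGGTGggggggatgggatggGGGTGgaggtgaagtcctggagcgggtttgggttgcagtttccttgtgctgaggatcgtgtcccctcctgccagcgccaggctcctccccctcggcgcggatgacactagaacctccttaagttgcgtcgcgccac
Cebpa, chr7:35119043-35119292 (+): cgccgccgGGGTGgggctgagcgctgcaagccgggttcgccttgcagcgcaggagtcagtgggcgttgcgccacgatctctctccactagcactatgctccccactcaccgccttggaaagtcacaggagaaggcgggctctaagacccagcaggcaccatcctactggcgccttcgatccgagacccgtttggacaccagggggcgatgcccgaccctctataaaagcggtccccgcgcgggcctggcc
The Grhl3 window held these letters 3 times, beginning 117, 109 and 76 bases before the start. The Gata3 window held them 3 times, with 1 pair sharing a letter, and the Cebpa window held them 1 time. CACCC on either strand was present in 52% of the 32851 RefSeq promoter windows of this length. Neither these 3 windows nor those of Klf4 and Grhl1 held the grainyhead letters ACCGGTT on either strand, which 0.831% of windows held. None of them held the GATA letters AGATAA, found in 9.99% of windows, or the p63 motif, found in 0.49%. TTGCNNCAA (C/EBP, 1.74%) was found at the second Grhl1 start. The Cebpa window also held a TATAAA beginning 30 bases before its start, a motif present in 12.4% of windows. A match is a run of letters and not a shown binding site.

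Reads on genes numbered from 19413261 to 86532134 per laboratory mouse library and from 5669760 to 34751956 per spiny mouse library. A floor of 3 counts corresponded to between 0.0347 and 0.155 CPM (counts per 1000000 reads on genes) in laboratory mouse libraries and to between 0.0863 and 0.529 CPM in spiny mouse libraries, and these floors cover counting error only. The labelled layers held their defining markers. The summed level of 14 keratinocyte markers was between 157955 and 219882 CPM in laboratory mouse epidermis and between 12.8 and 5090 CPM in wild-type dermis, while 15 fibroblast markers summed to between 1079 and 7155 CPM in epidermis and between 135106 and 196772 CPM in wild-type dermis. In the spiny mouse, keratinocyte markers summed to between 46627 and 113629 CPM in epidermis and between 876 and 14676 CPM in dermis. The second KO dermis library stood apart, with keratinocyte markers at 38393 CPM against 1096 CPM in the first. Twist1 was at 73.4 and 44.0 CPM in KO dermis and between 36.3 and 159 CPM in wild-type dermis, which does not check the genotype because the deletion is in keratinocytes.

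**Figure D1:**
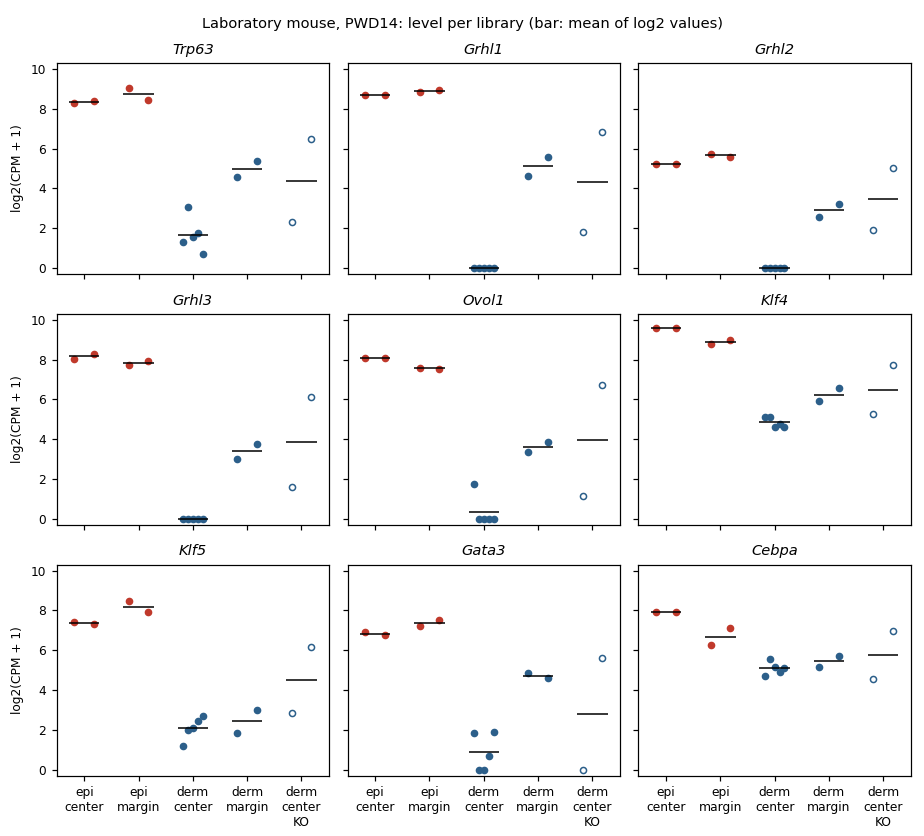
Levels of the 9 factors in the 13 laboratory mouse libraries at PWD14, as log2(CPM + 1), with each point a library, open circles for KO dermis and bars at the mean of the log2 values. The 4 epidermis libraries lie above every wild-type dermis library for all 9 factors, and Grhl1, Grhl2 and Grhl3 are at 0 in the 5 wild-type wound center dermis libraries. The share of all genes separated in this way was not counted.

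In laboratory mouse epidermis, where the wound center is the region that forms hair, Cebpa, Klf4, Ovol1 and Grhl3 had higher fitted levels in the center and Klf5, Gata3, Trp63, Grhl2 and Grhl1 had lower ones. None of the 9 was called, at an FDR under 0.05, between center and margin. Here FDR is the Benjamini-Hochberg adjusted p-value of edgeR's quasi-likelihood test over all tested genes, and 1.24% of 14165 genes were called in this comparison, 0.882% higher and 0.36% lower in the center. At an unadjusted p under 0.05, 5 of the 9 passed, as did 3328 of the 14165 genes. DESeq2 called 2 of the 9, Klf5 (adjusted p = 0.0327) and Cebpa (adjusted p = 0.0148), and 1544 of 14579 genes. With 1 library left out, factors were called only in the fits without a margin library, each of which leaves 1 margin library. The median log2 fold change of the 9 was -0.30 with both margin libraries. It was -0.17 without the first of them and -0.29 without the second. For each factor the center libraries and the margin libraries did not overlap. The share of all genes without overlap was not counted, here or in the comparisons below. Such separation is therefore not read as particular to the factors.

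Cebpa, the early differentiation factor, was at 242 and 241 CPM in the center and at 74.6 and 138 CPM in the margin. Both center libraries were higher, with a log2 fold change of 1.10 (SE 0.29, FDR 0.125, n = 2 and 2). Klf4, the suprabasal barrier factor, was at 782 and 759.5 CPM in the center and 447 and 506 CPM in the margin (log2 fold change 0.59, SE 0.21, FDR 0.178). Ovol1 was at 269 and 271 CPM in the center and 193 and 182 CPM in the margin, with a log2 fold change of 0.42 (SE 0.20, FDR 0.272). Grhl3 was at 261 and 311 CPM in the center and 214 and 243 CPM in the margin (0.23, SE 0.21, FDR 0.549).

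The factors with lower center levels included the factor of proliferating basal cells. Klf5 was at 169 and 158 CPM in the center and 351 and 239 CPM in the margin, with a log2 fold change of -0.97 (SE 0.28, FDR 0.137). Gata3 was at 118 and 107 CPM in the center and 149.6 and 185 CPM in the margin (-0.68, SE 0.20, FDR 0.141). For every factor except Grhl3 the margin libraries differed from each other by more than the center libraries did. Disagreement beyond counting noise was measured over genes with at least 20 counts in the pair. The chi-square per degree of freedom was 393.5 between the margin libraries and 36.05 between the center libraries. Trp63 was at 308 and 332 CPM in the center and 532 and 353 CPM in the margin (-0.58, SE 0.29, FDR 0.288). Grhl2 stood at 36.5 and 36.6 CPM against 52.0 and 47.4 CPM (-0.55, SE 0.22, FDR 0.211), and Grhl1 at 420.1 and 413 CPM against 459.6 and 495 CPM (-0.30, SE 0.20, FDR 0.408). Markers of other cells moved with region in these libraries. Fibroblast markers summed to 7155 and 5903 CPM in center epidermis and 2813 and 1079 CPM in margin epidermis, with 14 of 15 markers higher in the center by fitted value and 2 called. Their part in the values of the factors was not tested.

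In laboratory mouse dermis, Grhl1 and Gata3 were called lower in the center than in the margin, and the other 7 of the 9 factors were not called. The background was 0.85% of 14698 genes called, 0.735% lower and 0.116% higher in the center. Bulk levels do not separate fewer cells of a type from less RNA per cell, and this holds for each comparison below. The 2 center and 2 margin libraries compared here are those that the study set against each other, and the other 3 wild-type center libraries belong to its genotype comparison. Grhl1, a regulator of desmosomal adhesion, had 0 counts in both center libraries and 23.7 and 47.4 CPM in the margin libraries, at least 230-fold higher in the margin (FDR 0.0130, n = 2 and 2). Gata3 was at 2.58 and 0 CPM in the center and 27.7 and 23.1 CPM in the margin, a log2 fold change of -4.12 (SE 0.83, FDR 0.0484). Both center libraries lay below both margin libraries for each of these genes. The call of Gata3 was lost with DESeq2 (adjusted p = 0.557), with the edgeR 3 estimate (FDR 0.279), with library size alone (FDR 0.0541) and with all 13 libraries in the fit (FDR 0.0920).

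The other grainyhead-like factors showed the same split without being called. Grhl2 had 0 counts in both centers and 4.95 and 8.34 CPM in the margins, at least 43.0-fold higher in the margin (FDR 0.161), and Grhl3 had 0 counts in both centers and 7.15 and 12.4 CPM in the margins, at least 63.2-fold higher (FDR 0.115). Trp63 was at 1.5 and 7.42 CPM in the center and 23.1 and 40.3 CPM in the margin (-2.79, SE 0.63, FDR 0.0792). Center and margin did not overlap for Trp63, nor for Ovol1 and Klf4. Ovol1 was at 2.4 and 0 CPM in the center against 9.35 and 13.3 CPM in the margin (-3.05, SE 0.99, FDR 0.208), and Klf4 at 33.3 and 33.7 CPM against 58.7 and 94.2 CPM (-1.09, SE 0.29, FDR 0.138). The groups overlapped for the last pair of factors. Klf5 was at 1.27 and 2.99 CPM in the center and 2.63 and 6.99 CPM in the margin (-1.10, SE 0.95, FDR 0.647), and Cebpa at 25.3 and 45.8 CPM against 34.6 and 51.8 CPM (-0.20, SE 0.35, FDR 0.849).

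The calls in dermis changed with the libraries used. With all 5 wild-type centers, 6 of 9 factors were called lower in the center, Trp63, Grhl1, Grhl3, Ovol1, Klf4 and Gata3, as were 293 of 15273 genes. The 3 added centers held 0 counts of Grhl1, Grhl2, Grhl3 and Ovol1. Without either margin library no factor was called. Keratinocyte markers moved with region in the same libraries, with sums of 674 and 482 CPM in the 2 centers and 2518 and 5090 CPM in the margins. All 14 were lower in the center by fitted value and 9 were called, with Krt10, Krt1 and Krt14 the leading markers in the margin. Inner root sheath markers, genes of the hair follicle, summed to 4.31 and 2.94 CPM in the centers and 885 and 893 CPM in the margins, and 9 of 10 were called lower. The part of these cells in the levels of the factors was not tested.

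The difference between center and margin itself differed between the layers for 6 factors, Grhl1, Grhl2, Grhl3, Ovol1, Klf4 and Gata3, tested as an interaction term over these 8 libraries. The background was 3.48% of 15531 genes called, 0.135% in the lower direction and 3.34% in the direction the center stands higher relative to the margin in epidermis than in dermis. The median over all genes was 0.31. The interaction was 1.83 for Klf4 (SE 0.38, FDR 0.0229), 3.62 for Ovol1 (SE 0.77, FDR 0.0259) and 3.6 for Gata3 (SE 0.76, FDR 0.0259) on the log2 scale. It had an FDR of 0.00140 for Grhl1, 0.00836 for Grhl2 and 0.00198 for Grhl3, for which no size is given because center dermis is at 0 counts. These grainyhead-like factors passed the filter on low counts through the other groups alone. It was not called for Trp63 (2.34, SE 0.66, FDR 0.0900), Cebpa (1.43, SE 0.48, FDR 0.152) or Klf5 (0.28, SE 0.64, FDR 0.914). DESeq2 and the edgeR 3 estimate each left 4 of the 6, without Ovol1 and Gata3. Without the second margin dermis library, 2 of the 6 remained called, Grhl1 and Grhl3. Layer and read type cannot be told apart, since epidermis was read from both ends and dermis from a single end.

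In center dermis of K14-Cre-Twist1 mice, all 9 factors had higher fitted levels than in the 3 wild-type libraries of that comparison, and none was called, against a background of 0.0565% of 14163 genes, 0.0494% higher and 0.00706% lower. At an unadjusted p under 0.05, 8 of the 9 passed, as did 1631 of the 14163 genes, and DESeq2 called 6 of the 9 and 520 of 14982 genes. The values split by library. Trp63 was at 3.91 and 88.0 CPM in the KO libraries and at 1.92, 2.37 and 0.607 CPM in wild type (log2 fold change 4.82, SE 1.14, FDR 0.261, n = 2 and 3). Klf4 was at 37.4 and 209 CPM against 23.8, 26.1 and 23.3 CPM (2.31, SE 0.58, FDR 0.268), and Klf5 at 6.12 and 69.7 CPM against 3.25, 4.38 and 5.50 CPM (3.09, SE 0.91, FDR 0.282). In each case the second KO library was the highest of the 5 and the first lay nearer to the wild type.

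Grhl1 at 2.49 and 112 CPM, Grhl2 at 2.73 and 31.9 CPM, Grhl3 at 2.02 and 67.9 CPM and Ovol1 at 1.22 and 106 CPM in KO dermis had 0 counts in all 3 wild-type libraries. Their KO means were at least 377-fold, 115-fold, 231-fold and 354-fold higher, bounds that rest on the second KO library. Gata3 was at 0 and 48.0 CPM in KO and 0, 0.605 and 2.70 CPM in wild type (4.39, SE 1.47, FDR 0.323), and Cebpa at 22.6 and 125 CPM against 35.0, 28.7 and 34.0 CPM (1.14, SE 0.57, FDR 0.469). For these last factors the first KO library lay at or below the wild type. Without the second KO library no factor was called, the median log2 fold change of the 9 fell from 4.82 to 1.33, and Gata3 and Cebpa turned to the opposite direction. Without the first KO library all 9 were called, as were 3353 of 14915 genes. The second KO library held keratinocyte markers at 38393 CPM, led by Krt10, Krt1 and Krt14, against between 12.8 and 70.1 CPM in the 3 wild-type libraries, and the summed level of the 9 factors there was 856 CPM against 78.4 CPM in the first KO library. The part of keratinocyte RNA in the KO values was not tested.

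Between layers of the same region every factor was higher in epidermis. In the wound center 9 of 9 were called higher in epidermis (2 libraries) than in dermis (5 wild-type libraries), against a background of 51.8% of 15017 genes called, 26.8% higher and 25% lower. Trp63 was between 308 and 332 CPM in epidermis and at 1.5, 7.42, 1.92, 2.37 and 0.607 CPM in dermis, a log2 fold change of 7.64 (SE 0.61, FDR 1.25e-05). Grhl1 was at least 2696-fold, Grhl2 at least 237-fold and Grhl3 at least 1851-fold higher in epidermis, since all 5 dermis libraries had 0 counts. These grainyhead-like factors passed the filter on low counts through epidermis alone. With at least 10 counts in every library, 4 of the 9 were tested and all 4 were called. Ovol1 had counts in 1 of the 5 dermis libraries, at 2.4 CPM (9.89, SE 1.18, FDR 2.20e-05). Dermis libraries held no factor at a level that reached the epidermis.

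Klf4 was at 33.3, 33.7, 23.8, 26.1 and 23.3 CPM in center dermis and 27.5-fold higher in epidermis by the group means (log2 fold change 5.51, SE 0.20, FDR 2.01e-06). Cebpa was at 25.3, 45.8, 35.0, 28.7 and 34.0 CPM in center dermis, and its difference was the smallest of the 9, at 3.56 (SE 0.21, FDR 4.37e-06). Klf5 had a log2 fold change of 6.26 (SE 0.39, FDR 4.95e-06), and Gata3 had 7.26 (SE 0.88, FDR 8.62e-05) with 2 of 5 dermis libraries at 0 counts. In the margin 9 of 9 were again called higher in epidermis, against a background of 47.7% of 14964 genes called, 20.9% higher and 26.8% lower. The log2 fold change there was 4.67 (SE 0.44) for Trp63, 4.60 (SE 0.43) for Grhl1, 3.75 (SE 0.42) for Grhl2, 5.39 (SE 0.39) for Grhl3 and 4.90 (SE 0.37) for Ovol1. It was 3.48 (SE 0.37) for Klf4, 6.81 (SE 0.53) for Klf5, 3.55 (SE 0.34) for Gata3 and 2.13 (SE 0.37) for Cebpa, with Cebpa having the highest FDR of the 9, at 0.000969. Gata3 lost its call in the margin when all 13 libraries were fitted together (FDR 0.0564). Without TMM factors the median of all genes moved from -0.08 to -0.80 in the center and from -0.16 to -0.98 in the margin, with 2304 genes called higher and 5833 lower in the center in place of 4024 and 3753, and 1598 and 6190 in the margin in place of 3126 and 4015. All 9 factors stayed called higher in epidermis in both regions under that scaling.

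**Figure D2:**
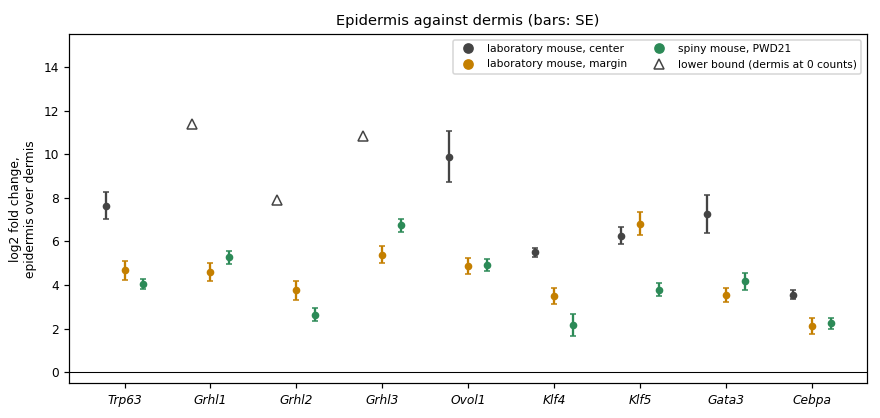
Fitted log2 fold change of epidermis over dermis for the 9 factors in the laboratory mouse wound center, the laboratory mouse wound margin and the spiny mouse wound at PWD21, with bars of 1 SE and triangles for the lower bounds of Grhl1, Grhl2 and Grhl3 in the wound center. Every value lies above 0, and the smallest in the wound center and margin belong to Cebpa, at 3.56 and 2.13.

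Levels of different genes can be set beside each other only per length. The length used joins all annotated exons of a gene, not those of the transcripts present. How far this shifts the order was not measured, and overlap of libraries does not cover it, so the order of close neighbours is tentative. Per kilobase of exon, Klf4 was the highest and Grhl2 the lowest of the 9 in every epidermis group of both species. For the spiny mouse, both the alignment and the exon lengths are those of the laboratory mouse genome. How far alignment differs between genes was not measured, so the order in that species is tentative. In center epidermis Klf4 had a mean of 252.7 CPM per kilobase and Grhl2 4.25, with Grhl3 (102.5), Cebpa (91.8), Ovol1 (77.5), Grhl1 (75.2), Trp63 (38.2), Klf5 (31.4) and Gata3 (28.3) between them, and no neighbours in this order had overlapping libraries. In margin epidermis the order after Klf4 (156.2) was Grhl1 (86.1), Grhl3 (81.8), Klf5 (56.7), Ovol1 (53.7), Trp63 (52.8), Gata3 (42.1), Cebpa (40.3) and Grhl2 (5.77). Grhl1 and Grhl3 overlapped there, as did the neighbours from Klf5 down to Cebpa. Cebpa thus ranked 3 of 9 in the center and 8 of 9 in the margin. In wild-type center dermis Cebpa (12.8 CPM per kilobase) and Klf4 (9.20) led, and each of the other 7 had a mean below 1 CPM per kilobase.

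**Figure D3:**
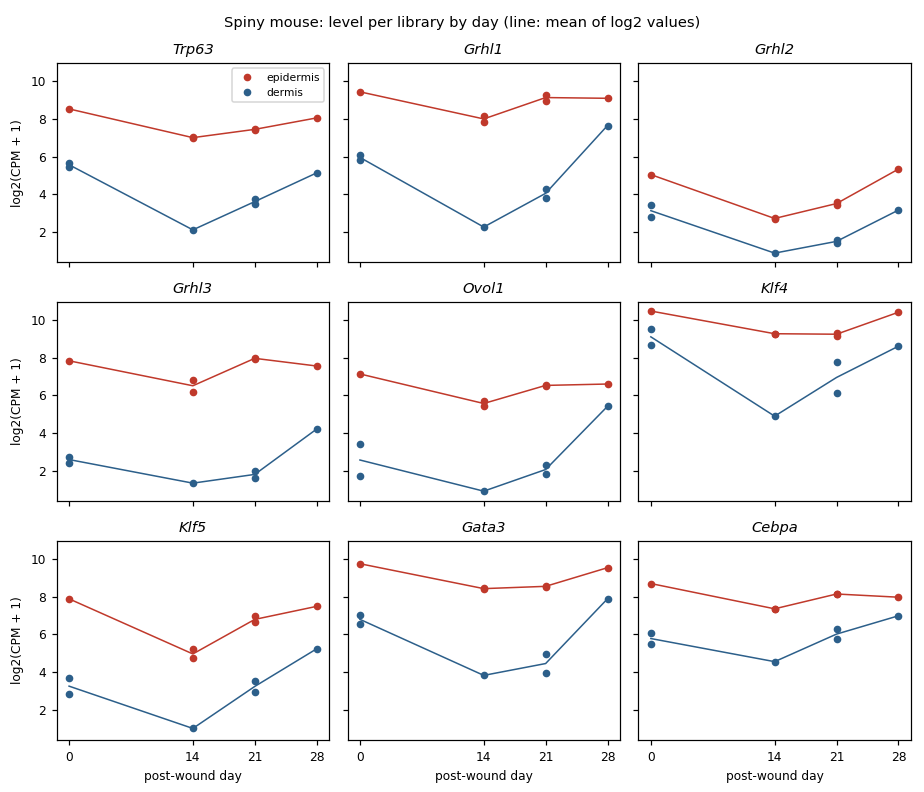
Levels of the 9 factors in the 12 spiny mouse libraries by post-wound day, as log2(CPM + 1), with epidermis in red and dermis in blue, each point a library and lines through the mean of the log2 values. At PWD14 all 9 factors are at their lowest dermal value, and Klf5 and Grhl2 show the deepest fall from PWD0 in epidermis.

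In spiny mouse epidermis most factors had their highest mean in unwounded skin and their lowest at PWD14. By mean CPM, 7 of 9 were highest at PWD0, against 31.4% of 12511 genes, and 8 of 9 were lowest at PWD14, against 60.9% of genes. With TMM factors 5 of 9 were lowest at PWD14, against 38.7% of genes. Over the course from PWD0 through PWD14 and PWD21 to PWD28, Trp63 was at 369, then 131 and 124, then 171 and 175, and then 265 CPM. The pairs at PWD14 and PWD21 did not overlap, and both lay below the single libraries of PWD0 and PWD28. Among the Klf factors, Klf4 was at 1436, then 624 and 619, then 640.3 and 582, and then 1372 CPM, and Klf5 was at 236, then 35.8 and 25.3, then 98.7 and 123, and then 179 CPM. Klf4 was thus at a shared level at PWD14 and PWD21, while Klf5 was lowest at PWD14 alone. Gata3 was at 864, then 334 and 355, then 368 and 382, and then 746 CPM over the same days.

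The grainyhead-like factors did not move alike. Grhl1 was at 694, then 227 and 286, then 504 and 626, and then 547 CPM over these days, and Grhl3 was at 229, then 72.5 and 113, then 244 and 257, and then 189 CPM. Grhl3 was the member whose highest mean fell at PWD21. Grhl2 was at 31.9, then 5.66 and 5.42, then 9.78 and 10.9, and then 39.3 CPM, so that its PWD21 pair was still closer to PWD14 than to the unwounded library. Ovol1 was at 140.4, then 51.7 and 42.1, then 89.9 and 93.6, and then 96.6 CPM, and Cebpa at 416, then 161 and 165, then 284 and 280.2, and then 251 CPM. For both of these the PWD21 pair lay above the PWD14 pair and below PWD0.

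PWD14 and PWD21 epidermis, with 2 libraries each, were compared directly. Of the 9 factors, 2 were called higher at PWD14, Klf4 (log2 fold change 0.58, SE 0.15, FDR 0.0103) and Gata3 (0.43, SE 0.15, FDR 0.0328), and 3 were called lower, Klf5 (-1.30, SE 0.22, FDR 0.000717), Grhl3 (-0.89, SE 0.19, FDR 0.00348) and Grhl1 (-0.59, SE 0.17, FDR 0.0144). The background was 46.6% of 12889 genes called in either direction, 23.4% higher and 23.2% lower, so a share of 5 in 9 stands near it. The values of Ovol1 (-0.41, SE 0.18, FDR 0.0824), Grhl2 (-0.34, SE 0.28, FDR 0.332), Cebpa (-0.24, SE 0.15, FDR 0.213) and Trp63 (0.11, SE 0.16, FDR 0.583) were not called. The call of Gata3 was lost when any 1 of the 4 libraries was left out (FDR between 0.0566 and 0.199), with no filter on low counts (FDR 0.0808) and with at least 10 counts in every library (FDR 0.0546). Only Grhl3 and Klf5 kept their calls without the second PWD21 library, and likewise with all 12 spiny mouse libraries in the fit.

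The scale decided several of these directions. On the CPM scale Klf4 overlapped between the days and Gata3 was lower at PWD14, whereas the TMM scale puts both higher at PWD14. Without TMM factors the median of all genes moved from -0.04 to -0.59, with 1337 genes called higher and 5721 lower at PWD14 in place of 3011 and 2991. On that scale no factor was called higher and 7 were called lower, Gata3 turned to -0.12 (FDR 0.509) and Trp63 to -0.44 (FDR 0.0334), and Klf4 was at 0.02 (FDR 0.898). Klf5 at -1.86, Grhl3 at -1.43 and Grhl1 at -1.14 were called lower on both scales. Libraries of the days also differed in abundant transcripts, since Fabp4 alone averaged 5731 CPM and S100a9 2007 CPM at PWD14, and sums of the adipocyte list (1358 and 1062 CPM) and the myeloid list (504 and 296 CPM) were lower at PWD21. The part of these transcripts in the scaling was not tested.

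**Figure D4:**
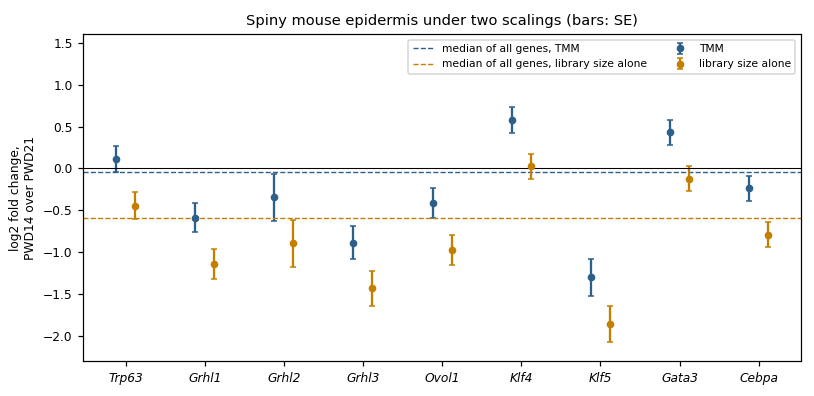
Fitted log2 fold change of spiny mouse epidermis at PWD14 over PWD21 for the 9 factors, with bars of 1 SE, with TMM factors and with library size alone, and dashed lines at the median of all genes (-0.04 and -0.59). Klf4 and Gata3 lie above 0 with TMM factors and near 0 with library size alone, while Klf5, Grhl3 and Grhl1 lie below 0 on both scales.

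Against unwounded epidermis, 7 of 9 factors were called lower at PWD14, where 48.8% of 14336 genes were called, 26.1% lower and 22.7% higher. At PWD21 5 of 9 were called lower, where 28.7% of genes were called, 15.3% lower and 13.4% higher. Both contrasts use the single PWD0 library, which is assumed to vary like the pairs, so they are given side by side and are not independent. Klf5 fell by 2.23 on the log2 scale at PWD14 (SE 0.25, FDR 6.21e-05) and by 0.91 at PWD21 (SE 0.24, FDR 0.0182). Grhl2 fell by 1.81 (SE 0.29, FDR 0.000522) and by 1.45 (SE 0.26, FDR 0.00304), and Trp63 by 0.81 (SE 0.19, FDR 0.00466) and by 0.91 (SE 0.19, FDR 0.00544). Gata3 fell by 0.61 (SE 0.18, FDR 0.0177) and by 1.02 (SE 0.18, FDR 0.00251), so that these 4 factors were called lower than unwounded skin on both days. Without the first PWD21 library the call of Klf5 at PWD21 was lost (FDR 0.108).

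Ovol1 (-0.86, SE 0.22, FDR 0.00771), Grhl1 (-0.72, SE 0.21, FDR 0.0145) and Cebpa (-0.63, SE 0.18, FDR 0.0161) were called lower at PWD14 and not at PWD21, where their values were -0.43 (FDR 0.161), -0.12 (FDR 0.71) and -0.37 (FDR 0.154); whether the days differ is the direct comparison given before. Klf4 was called lower at PWD21 (-1.05, SE 0.19, FDR 0.00272) and not at PWD14 (-0.49, SE 0.19, FDR 0.0535). Grhl3 was called on neither day, at -0.59 (SE 0.24, FDR 0.0628) and 0.32 (SE 0.24, FDR 0.355). Without TMM factors all 9 were called lower at PWD14 and the median of all genes moved from -0.15 to -0.86, with 1662 genes called higher and 6360 lower in place of 3255 and 3737. At PWD21 that scaling added Cebpa to the calls, and 1206 genes were called higher and 2698 lower in place of 1916 and 2194.

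Spiny mouse dermis had its low point at the same day. The highest mean of a factor over the days was between 5.61-fold (Cebpa) and 53.1-fold (Grhl1) its lowest in dermis, and between 2.35-fold (Klf4) and 7.72-fold (Klf5) in epidermis. All 9 factors were lowest at PWD14, against 45.1% of 13856 genes by mean CPM, with a single library at that day. In the same order of days, Klf4 was at 414 and 742, then 28.8, then 68.8 and 220.1, and then 392.2 CPM, and Trp63 at 43.2 and 49.7, then 3.30, then 9.99 and 12.5, and then 34.0 CPM. Both were highest in unwounded skin, as was Grhl2 at 6.0 and 9.85, then 0.824, then 1.961 and 1.67, and then 7.90 CPM. The other 6 were highest in the single PWD28 library. By mean CPM, 25.3% of genes were highest at PWD0 and 29.8% at PWD28, and with TMM factors 16.7% were highest at PWD28. Grhl1 was at 55.7 and 66.7, then 3.77, then 12.9 and 18.7, and then 199.9 CPM, Gata3 at 94.0 and 129, then 13.1, then 14.2 and 30.5, and then 237 CPM, and Ovol1 at 2.29 and 9.70, then 0.883, then 2.60 and 3.86, and then 41.9 CPM.

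Grhl3, Klf5 and Cebpa had the same order of PWD14 and PWD28 in dermis. Grhl3 was at 4.41 and 5.73, then 1.53, then 2.10 and 2.94, and then 17.6 CPM. Klf5 was at 6.0 and 11.9, then 1.0, then 6.80 and 10.33, and then 36.6 CPM, and Cebpa at 44.1 and 65.8, then 22.4, then 53.0 and 76.5, and then 126 CPM. For Klf5 and Cebpa the PWD0 and PWD21 pairs overlapped. Between PWD21 and PWD0, 5 of 9 factors were called lower at PWD21, against a background of 26.2% of 14481 genes called, 14.2% lower and 12% higher. Gata3 had a log2 fold change of -2.40 (SE 0.40, FDR 0.00427), Grhl2 of -2.21 (SE 0.47, FDR 0.0117), Trp63 of -2.15 (SE 0.31, FDR 0.00243), Klf4 of -2.06 (SE 0.53, FDR 0.0242) and Grhl1 of -2.05 (SE 0.32, FDR 0.00326). The other values were -1.10 for Grhl3 (SE 0.49, FDR 0.129), -0.93 for Ovol1 (SE 0.62, FDR 0.292), -0.13 for Klf5 (SE 0.44, FDR 0.851) and 0.15 for Cebpa (SE 0.31, FDR 0.738). Without the first PWD21 library 3 of the 5 remained called, Trp63, Grhl1 and Gata3.

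Keratinocyte markers were also lower in PWD21 dermis, with 13 of 14 called, and summed to 14676 and 10373, then 2008, then 876 and 1566, and then 5609 CPM over the days. Adipocyte markers (10 of 10 called lower, median -4.36) and sebocyte markers (6 of 10 called lower, median -2.97) moved the same way, while 8 of 15 fibroblast markers (median 1.21) and 5 of 10 endothelial markers (median 1.12) were called higher. Inner root sheath markers summed to 15.9 and 4241, then 96.0, then 2111 and 2461, and then 35336 CPM, and 0 of 10 were called between PWD21 and PWD0. The PWD28 library was therefore the highest of the dermis libraries for inner root sheath markers and for 6 of the 9 factors, without being the highest for keratinocyte markers. By mean CPM, 29.8% of all genes were highest at that day. The part of keratinocyte, follicle, sebocyte and adipocyte RNA in the dermal levels was not tested.

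**Figure D5:**
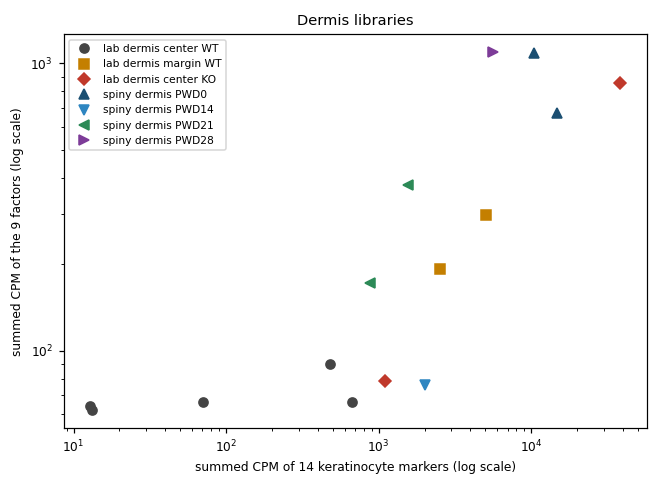
Summed level of the 9 factors against the summed level of 14 keratinocyte markers in the 15 dermis libraries, in CPM on log axes, with each point a library. The 5 wild-type wound center libraries lie between 62.2 and 90.0 CPM of the factors, and the second KO library lies highest of the laboratory mouse libraries. Among the spiny mouse libraries those of PWD0 and PWD28 lie highest. Levels are to be compared within a species only.

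At PWD21, the spiny mouse day with 2 libraries in each layer, 9 of 9 factors were called higher in epidermis, against a background of 62.9% of 14966 genes called, 29.4% higher and 33.5% lower. Grhl3 had the largest value, with 244 and 257 CPM in epidermis and 2.10 and 2.94 CPM in dermis (log2 fold change 6.74, SE 0.28, FDR 5.00e-06). Grhl1 (5.27, SE 0.29), Ovol1 (4.93, SE 0.28), Gata3 (4.17, SE 0.39), Trp63 (4.06, SE 0.23) and Klf5 (3.8, SE 0.28) followed, then Grhl2 (2.63, SE 0.30), Cebpa (2.24, SE 0.25) and Klf4 (2.19, SE 0.50, FDR 0.00698). Epidermis and dermis libraries did not overlap for any factor. The ratio of mean epidermal to mean dermal CPM of Klf4 was 2.49, 21.5, 4.23 and 3.50 over the days in order, and that of Grhl1 was 11.3, 68.1, 35.8 and 2.73. The ratio of Ovol1 was 23.4, 53.1, 28.4 and 2.30. These ratios at PWD0, PWD14 and PWD28 rest on a single library in at least 1 layer and have no test.

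Other genes of the epidermal program were followed in lists that share some members. For center over margin in laboratory mouse epidermis, the median on the log2 scale was 0.27 for terminal differentiation genes (1 of 13 called higher), 0.03 for p63 and basal adhesion targets (0 of 14 called), -0.19 for grainyhead targets (1 of 11 called higher) and -0.0041 for the other epidermal regulators (1 of 27 called higher and 1 lower), beside -0.02 for all genes. The leading genes Krt1 (-0.34, FDR 0.786), Krt14 (1.02, FDR 0.254) and Dsp (-0.49, FDR 0.409) were not called. For center over margin in dermis, terminal differentiation genes had a median of -3.28 with 7 of 13 called lower, grainyhead targets -3.21 with 3 of 11, p63 targets -0.54 with 1 of 13 and other regulators -1.21 with 2 of 27, beside -0.03 for all genes. Desmoplakin (Dsp), a desmosomal linker, was at -3.31 (SE 0.38, FDR 0.00284) and the p63 target Perp at -4.32 (SE 0.26, FDR 3.35e-05).

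In spiny mouse epidermis the lists differed in direction from each other. Terminal differentiation genes were higher than unwounded skin at PWD14 (median 1.23, 11 of 13 called higher, 0 lower) and at PWD21 (1.10, 9 called higher, 1 lower), while the 9 factors had medians of -0.72 and -0.91. Sbsn, encoding suprabasin of the cornified layers, was at 1.92 at PWD14 (SE 0.25, FDR 0.000163), and Krt10 was at 0.86 (SE 0.23, FDR 0.0106). For p63 and basal adhesion targets the medians were -0.93 (2 called higher and 9 lower of 14) at PWD14 and -0.83 (2 and 9) at PWD21, and within that list Krt14 was higher at PWD14 by 3.78 (SE 0.32, FDR 1.71e-05). Grainyhead targets had medians of -0.85 (2 called higher and 8 lower of 12) and -0.51 (1 and 6). Among them Dsp fell by 1.97 at PWD14 (SE 0.22, FDR 6.08e-05) and Tgm1, the transglutaminase of the cornified envelope, was higher by 1.09 (SE 0.23, FDR 0.0029). The other epidermal regulators had medians of -0.32 (7 called higher and 10 lower of 28) and -0.33 (4 and 7), with the stress-responsive factor Cebpb at 1.06 (SE 0.31, FDR 0.0160) and the epithelial factor Ehf at 1.72 (SE 0.21, FDR 0.000117) at PWD14. The medians of all genes were -0.15 and 0.04.

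Between PWD14 and PWD21 epidermis the same lists divided. Terminal differentiation genes had a median of 0.77 (7 called higher at PWD14 and 3 lower of 13), p63 targets of 0.18 (4 and 5 of 14), grainyhead targets of -0.51 (1 and 6 of 12) and other regulators of 0.19 (10 and 5 of 28), beside -0.04 for all genes. Of all genes, 23.4% were called higher and 23.2% lower. These medians use TMM factors. Without them, p63 targets had a median CPM of 84.0 to 111 at PWD14 and 138 to 144 at PWD21. Other regulators were at 41.8 to 41.9 and then 58.9 to 66.4, and grainyhead targets at 88.8 to 104 and then 181 to 223. Terminal differentiation genes were at 689 to 776 and then 500.5 to 764. Inner root sheath markers were lower at PWD14 in all 9 tested, with a median of -3.18 and 9 called. In spiny mouse dermis from PWD0 to PWD21, p63 targets had a median of -1.06 (6 of 14 called lower), grainyhead targets of -1.80 (7 of 12), terminal differentiation genes of -1.94 (8 of 13) and other regulators of -0.71 (9 of 27 called lower and 2 higher), beside 0.03 for all genes. Perp fell by 4.08 (SE 0.39, FDR 0.000409) and the regulator Maf was higher by 1.95 (SE 0.30, FDR 0.00302).

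Profiles across libraries placed each factor beside epithelial genes. Likeness was taken as the smaller of the Pearson correlations of log2(CPM + 1) over the 13 laboratory mouse and the 12 spiny mouse libraries, among 12615 genes, and it is a description only, since the libraries share a layer division. The genes most like Grhl1 were Ppl (0.992), Zfp750 (0.985) and Macc1 (0.983), and the most like Ovol1 were Ppl (0.977), Grb7 (0.974) and Zfp750 (0.972). For Trp63 they were Fat2 (0.981), Bnipl (0.971) and Bpifc (0.971), for Grhl3 Prss8 (0.987), Il1f5 (0.985) and Tmprss13 (0.981), and for Grhl2 Fgfr3 (0.961), Dsg2 (0.955) and Fut1 (0.939). For Klf4 they were Mfsd6 (0.965), Wnk2 (0.963) and Cds1 (0.957), for Klf5 Il22ra1 (0.964), Atp10b (0.963) and S1pr5 (0.960), for Gata3 Casz1 (0.968), Eps8l1 (0.967) and Lipm (0.967), and for Cebpa Cldn4 (0.941), Map2k3 (0.940) and Gltp (0.938). Ppl encodes periplakin of the cornified envelope and Prss8 an epidermal channel-activating protease. Over the 36 pairs of the 9 factors themselves, r ranged from 0.816 to 0.990 in the laboratory mouse and from 0.759 to 0.979 in the spiny mouse. Within the 6 spiny mouse epidermis libraries it ranged from 0.308 to 0.985, and within the 6 dermis libraries from 0.599 to 0.987. The reads counted for Gata3 may include some from 9230102O04Rik and 4930412O13Rik, which overlap its span on the same and the opposite strand, and the spiny mouse libraries were not stranded. The isoforms of Trp63 cannot be told apart in gene counts.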

How the data were processed

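Poly(A) RNA was sequenced from 13 laboratory mouse and 12 spiny mouse skin libraries. The counts are raw reads per gene, which the authors deposited as 1 table per library; per the labels they used STAR 2.4.1d, HTSeq 0.6.0 and the mm10 build, and edgeR is also named. Laboratory mouse epidermis was read as stranded pairs, laboratory mouse dermis as stranded single ends and spiny mouse as unstranded single ends. The 5 summary lines of each table, which held between 30.2% and 42.3% of reads in the laboratory mouse and between 47.1% and 75.6% in the spiny mouse, were left out.

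Groups came from the labels. Counts were tested with edgeR 4.0.16 in R 4.3.3 (quasi-likelihood, TMM factors, filterByExpr, Benjamini-Hochberg adjustment over all tested genes, threshold 0.05), and SE is the fold change divided by the root of F. Tests were two-sided, in fits of the libraries compared. The contrasts of spiny mouse epidermis with PWD0 are the exception, since they came from a fit of all spiny mouse epidermis libraries. The alternatives were DESeq2 1.42.0, other scaling and filters, larger fits and leaving out each library, and the quasi-likelihood estimate of edgeR 3 was added after seeing the data. Scripts were tested on simulated data with 200 changed genes. Where a group had 0 counts, a fold is a lower bound against 3 counts in the library where that floor is largest. No libraries of a group agreed within sampling noise.

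The genes named are the 9 factors, the 3 genes most like each factor and some of the 3 genes of highest mean CPM in each gene list. Those printed from a list do not stand for the list, whose counts and median are given. The members and lists were chosen with earlier results of these data known. Positions and promoter windows came from RefSeq (GRCm38.p6), and exon lengths and overlapping genes from the GENCODE annotation. CPM is counts per 1000000 reads on genes. The motifs were searched on both strands. Depth was from 19413261 to 86532134 and from 5669760 to 34751956 reads on genes per library in the 2 species. Python 3.11.15, pandas 2.3.3, numpy 2.4.6 and matplotlib 3.10.9 were used for summaries and figures.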

Additional observations from a re-analysis of the deposited data

Results flagged for a closer look

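In the 5 wild-type wound center dermis libraries, the highest library lay far from the other 4 for Trp63, at 7.42 CPM, and for Ovol1, at 2.4 CPM where the other 4 had 0 counts. A gap of that size was looked for with Dixon's limit in 6 factors, those with counts in these 5 libraries. Chance passes the limit in about 1 of 20. That rate does not hold for Ovol1, since any level in a lone library passes where the other 4 are at 0 counts.

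The difference between center and margin differed between laboratory mouse epidermis and dermis for 6 factors by edgeR's interaction test. The FDR was 0.00140 for Grhl1, 0.00836 for Grhl2, 0.00198 for Grhl3, 0.0259 for Ovol1, 0.0229 for Klf4 and 0.0259 for Gata3. The calls of Ovol1 and Gata3 were lost with DESeq2 and with the edgeR 3 estimate.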

How the results depend on the processing

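No paired analysis was possible because the labels carry no replicate numbers, although regions and layers may share animals. Of 1158 values of the 9 factors under alternatives, 1032 kept their direction and their side of the threshold, 48 lost the call, 65 gained it and 13 changed sign. DESeq2 called 2 factors in laboratory mouse epidermis, 5 in dermis between center and margin (Grhl1, Trp63, Grhl2, Grhl3 and Klf4, without Gata3) and 6 in KO dermis. For dermis between center and margin, 1 was called with the edgeR 3 estimate, 1 with library size alone, 1 of 4 tested with at least 10 counts in every library and 6 with all 5 wild-type centers, which also gave 6 in KO dermis. With at least 10 counts in every library, 4 of 4 tested were called between center layers and 1 of 4 in the interaction, since fewer genes were tested. All 12 spiny mouse libraries in one fit left 2 calls between PWD14 and PWD21. Leaving out 1 library gave between 0 and 8 calls in laboratory mouse epidermis, 0 and 3 in dermis between center and margin, 0 and 9 in KO dermis, 2 and 4 between PWD14 and PWD21 epidermis, 3 and 6 in spiny mouse dermis, 7 and 8 at PWD14 and 4 and 5 at PWD21 against PWD0, and 2 and 7 in the interaction. A group left with 1 library is assumed to vary like the other. Library size alone turned Trp63 to -0.44 and Gata3 to -0.12 between PWD14 and PWD21. With 1 library left out, Cebpa ranged from -0.64 to 0.15 in laboratory mouse dermis and from -0.50 to 1.88 in KO dermis, and Gata3 from -7.74 to 6.53 in KO dermis, the lower value resting on a KO library at 0 counts. In spiny mouse dermis Ovol1 ranged from -1.53 to 0.28, Klf5 from -0.49 to 0.30 and Cebpa from -0.16 to 0.44. Grhl1 at PWD21 against PWD0 ranged from -0.26 to 0.0036, and Klf5 in the interaction from -0.66 to 0.84. The cause was not tested. Over all genes, the calls in laboratory mouse epidermis moved from 176 to 1544 with DESeq2 and to 0 with the edgeR 3 estimate (2893 at an unadjusted p under 0.05), those in dermis between center and margin from 125 to 736 and 54, those in KO dermis from 8 to 520 and 2, and those in the interaction from 540 to 1187 with DESeq2. With 2 libraries a group, and 1 in some spiny mouse groups, and floors up to 0.529 CPM, small differences of low factors were not detectable.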
